A study of Mus musculus with 4 samples.

Results

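Messenger RNAs for the small RNA machinery were followed through the knockdown of Parp12 in mouse oocytes. The 10 genes were Dicer1, Drosha, Dgcr8, Ago1, Ago2, Ago3, Ago4, Tarbp2, Prkra and Xpo5, taken by name from a count table of 55453 genes, and all 10 were found. The study holds 4 RNA-seq libraries, 2 of control oocytes with the wild-type label and 2 of Parp12 knockdown oocytes, all at the germinal vesicle stage and taken directly from the ovary. PARP12, the product of Parp12, belongs to the enzymes that attach ADP-ribose to proteins. The labels name no strain, age, number of oocytes or knockdown method. Nothing in the labels says that the libraries came from separate animals, so the p-values measure the spread between these libraries, which may be technical. Library totals ran from 35805122 to 45230773 counts.

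MicroRNAs are cut in the nucleus from long transcripts by DROSHA with its partner DGCR8, exported by exportin 5 (the product of Xpo5), cut again by DICER1 in the cytoplasm and loaded into an Argonaute protein. Endogenous small interfering RNAs bypass the nuclear step, because DICER1 cuts them straight from long double-stranded RNA. In mouse oocytes the small interfering RNAs are the class with an established role: oocytes without Dicer1 or catalytically active Ago2 fail in meiosis, whereas oocytes without Dgcr8 mature. Mouse oocytes also make a short form of DICER1 from a retrotransposon promoter inside the gene, and counts per gene add all forms together. In human cells PARP12 has been found in stress granules together with Argonaute proteins. Poly(A)-selected libraries measure messenger RNAs of the machinery that carry a poly(A) tail, and not the small RNAs themselves. Tail lengths were not measured, so the levels below are those of the selected RNA.

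The 4 Argonautes differ at the last residue of the catalytic centre that lets AGO2 cut its target, and the stretches around that codon are shown because the levels below separate the same pairs of genes. Each stretch has 33 bases of coding sequence from the GENCODE vM21 transcripts, 5′ to 3′ on the minus strand of mm10, with the codon in capitals.
Ago2, chr15:73107200-73107232: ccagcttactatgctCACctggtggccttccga
Ago3, chr4:126346666-126346698: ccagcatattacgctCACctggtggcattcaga
Ago1, chr4:126439877-126439909: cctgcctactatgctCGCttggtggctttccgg
Ago4, chr4:126496784-126496816: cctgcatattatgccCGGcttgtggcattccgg
Ago2 and Ago3 carry a histidine codon there, and Ago1 and Ago4 carry an arginine codon. Of the 33 bases, Ago3 shares 28 with Ago2, Ago1 shares 27 and Ago4 shares 24.

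Dgcr8 carries within its own coding sequence a hairpin that is annotated as Mir1306, and it is shown because the Microprocessor, the complex of DROSHA and DGCR8, is known to cut hairpins in the Dgcr8 messenger RNA. The hairpin lies at chr16:18284239-18284317 on the minus strand of GRCm38.p6 and is inside the coding sequence of both coding transcripts of Dgcr8. The sequences are from RefSeq, 5′ to 3′. Capitals mark both mature arms in the hairpin and the seed, bases 2 to 8, in each arm.
Mir1306 hairpin: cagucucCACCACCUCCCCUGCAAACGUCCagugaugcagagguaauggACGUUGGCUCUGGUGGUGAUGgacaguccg
mmu-miR-1306-5p: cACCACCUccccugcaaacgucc
mmu-miR-1306-3p: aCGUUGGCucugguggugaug
The row of Mir1306 itself had 0 counts in all 4 libraries, which says nothing of the mature microRNA in libraries of this kind.

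Per length, the messenger RNA of Dicer1 was the most abundant of the 10 and that of Ago4 the least. Levels between genes were compared as TPM, the counts per kilobase of summed exon length scaled to 1000000 per library. Averaged over the 4 libraries, Dicer1 stood at 169 TPM, Drosha at 141, Tarbp2 at 50.9 and Xpo5 at 45.8. Dgcr8 stood at 13.3 TPM, Ago3 at 12.2, Ago2 at 10.6, Prkra at 5.23, Ago1 at 0.925 and Ago4 at 0.431. Dicer1 (163 to 180 TPM) lay above Drosha (133 to 145 TPM) in every library, and Xpo5 (43.8 to 47.2 TPM) lay above Dgcr8 (11.4 to 14.9 TPM). The ranges of other neighbours in this order overlapped across libraries. These were Tarbp2 with Xpo5, Dgcr8 with Ago3, Ago3 with Ago2, Ago2 with Prkra, Prkra with Ago1 and Ago1 with Ago4. Within each library Ago3 still lay above Ago2, by 1.06 to 1.24 times, Prkra above Ago1 and Ago1 above Ago4. Tarbp2 also lay above Xpo5 within each library, but only at 45.6 against 45.58 TPM in knockdown replicate 2. The order of Dgcr8 and Ago3, and that of Ago2 and Prkra, differed between libraries. Drosha also lay above Tarbp2 (45.6 to 55.0 TPM) in every library. The summed exon length includes retained introns and other forms, 16750 nt for Dicer1 and 4549 nt for Tarbp2 against 9851 and 1523 nt in their longest coding transcripts. With the longest coding transcript as the length, chosen after the data were seen, the 10 genes kept the same order. The distances between genes changed. In mean counts per 1000000 and per kilobase, Drosha, Tarbp2 and Xpo5 then stood at 53.2, 44.3 and 18.0. By summed exon length they stood at 41.0, 14.8 and 13.4.

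**Figure D1:**
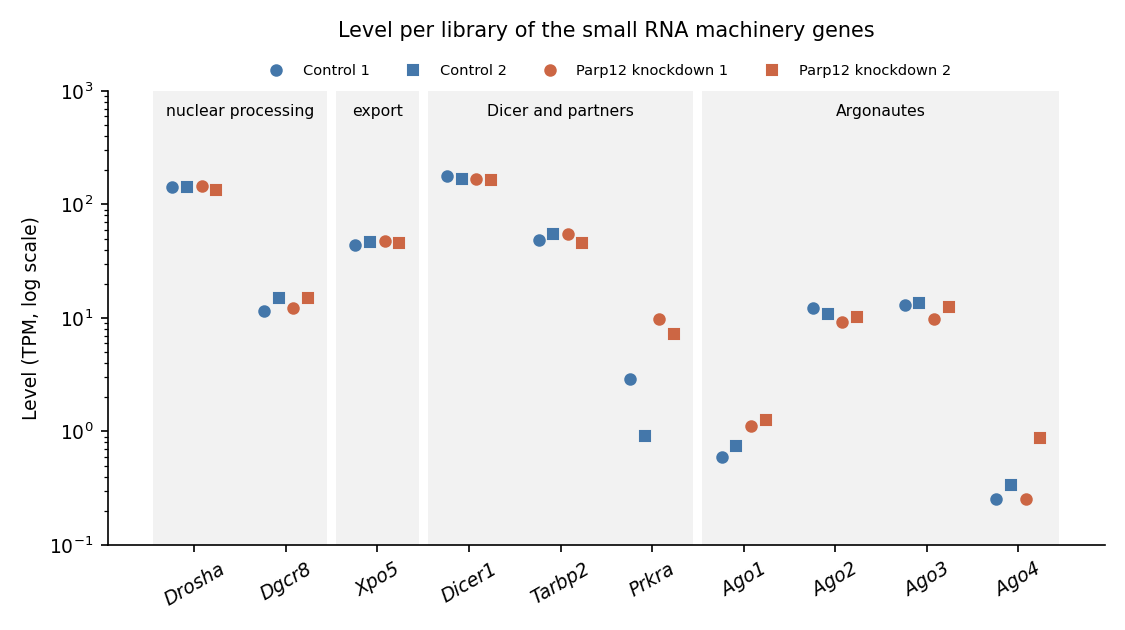
Level of the 10 machinery genes in each library, in TPM on a log scale, grouped by role. Points are single libraries, blue for control and orange for knockdown. Dicer1 and Drosha lie between 133 and 180 TPM in all 4 libraries, and Ago4 lies below 1 TPM.

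None of the 10 genes passed the test for a difference between knockdown and control. The test was edgeR's quasi-likelihood test over 15868 genes, with Benjamini-Hochberg adjustment over all of them at 0.05. It called 0.0063% of all tested genes, which is 1 gene, Parp12 itself. Control libraries held 14279 and 9419 counts of Parp12, and knockdown libraries held 32 and 86. All 10 members passed the filter on low counts. At an unadjusted p under 0.05, 1 of the 10 was listed (Prkra, higher), against 5.51% of all tested genes in either direction and 2.94% in the higher direction. DESeq2 called 0 of the 10 (1.77% of the genes it adjusted) and limma-voom called 0 of the 10 (0% of all), and each listed only Prkra at an unadjusted p under 0.05, where DESeq2 listed 10.2% and limma-voom 4.71% of all genes. Fold changes were above 0 on the log2 scale for 5 members and below 0 for 5, with a median of 0.01, where the median of all tested genes was 0.00. In 5 members (34.9% of all tested genes) the groups did not overlap, 2 of them higher in the knockdowns (18% of all tested genes) and 3 of them lower (16.8% of all tested genes).

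**Figure D2:**
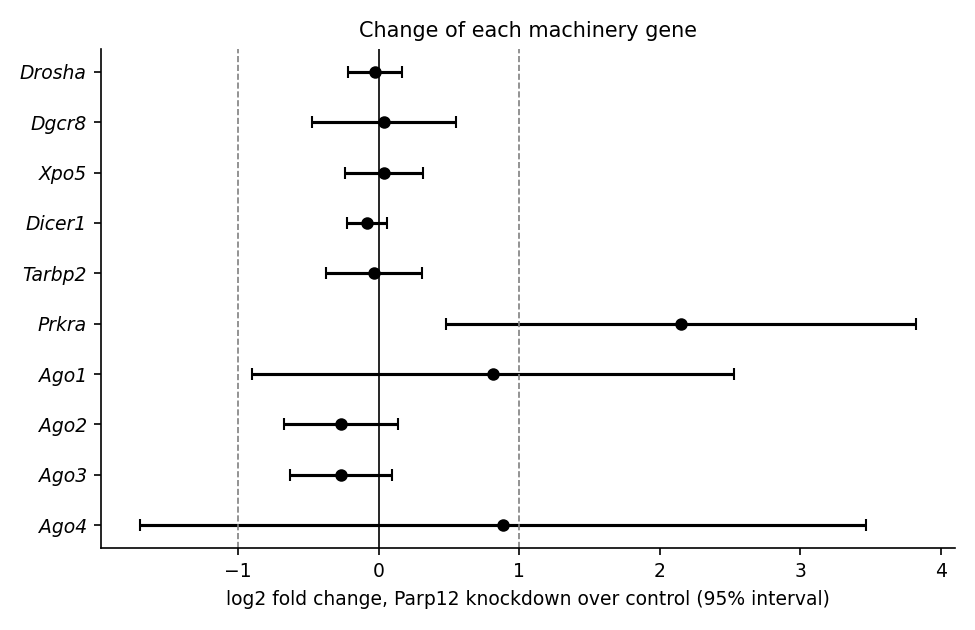
Fold change of each machinery gene, knockdown over control, on the log2 scale. Points are edgeR estimates from 2 libraries a group, bars are 95% intervals, and dashed lines mark a 2-fold change. The intervals of 7 genes stay inside the dashed lines, and those of Prkra, Ago1 and Ago4 reach beyond them.

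Among the genes of nuclear processing, Drosha (chromosome 15, 12824815 to 12935291, plus strand) encodes the nuclear enzyme that cuts the hairpin out of the primary transcript. It stood at 243 and 248 CPM (counts per 1000000 counts of a library) in the controls and at 251 and 230 CPM in the knockdowns. The knockdown libraries lay on either side of both controls, so the groups overlapped. Its log2 fold change was -0.03 (SE 0.09), with a 95% interval from 0.858-fold to 1.12-fold and an adjusted p of 0.980 by edgeR.

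Dgcr8 (chromosome 16, 18253948 to 18289246, minus strand) encodes the RNA-binding partner that holds the hairpin for DROSHA. Its libraries stood at 25.5 and 33.4 CPM in the controls and at 27.3 and 33.5 CPM in the knockdowns. The replicates within a group were further apart than the group means of 29.5 and 30.4 CPM. For the comparison of groups the log2 fold change was 0.04 (SE 0.24), and the interval ran from 0.719-fold to 1.47-fold, with an adjusted p of 0.989 by edgeR. Per length, Drosha exceeded Dgcr8 by 12.3 and 9.63 times in the controls and by 12.0 and 8.90 times in the knockdowns. With the longest coding transcript as the length this ratio lay between 6.49 and 8.99. Dgcr8 shares 825 nt of exon with Trmt2a, a gene on the other strand that encodes a tRNA methyltransferase, which is 10.7% of its exon length. Trmt2a stood at 25.7 and 26.5 CPM in the controls and at 21.5 and 23.2 CPM in the knockdowns. The Dgcr8 values are uncertain by an unknown amount, since no source used here says if reads were counted by strand. Of 7875 stretches of 50 nt in Dgcr8 transcripts, 1180 also occur in another gene when both strands are searched, most of them in Trmt2a. Gm49776 and Gm24572, which overlap Dgcr8 exons on its own strand, and Gm47288, which overlaps a Drosha exon, had 0 counts in all libraries. Gm24572 is another annotated hairpin in a Dgcr8 exon, that of mmu-miR-3618, and lies outside the coding sequence.

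Xpo5 (chromosome 17, 46202782 to 46243598, plus strand) encodes the carrier that takes precursor hairpins to the cytoplasm. It stood at 87.1 and 93.7 CPM in the controls and at 94.5 and 91.2 CPM in the knockdowns, with overlapping groups. An estimated log2 fold change of 0.04 (SE 0.13) had an interval from 0.848-fold to 1.25-fold and an adjusted p of 0.980 by edgeR.

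Dicer1 (chromosome 12, 104687742 to 104751952, minus strand), the enzyme that makes the final small RNA duplex, ranked 131st among all genes by CPM. Its libraries stood at 874 and 825 CPM in the controls and at 811 and 796 CPM in the knockdowns. The groups did not overlap, with the knockdowns lower, and the gap between the groups was smaller than that between the controls. The log2 fold change was -0.08 (SE 0.07), and the interval ran from 0.856-fold to 1.04-fold, with an adjusted p of 0.905 by edgeR. This was the narrowest interval of the 10 members. Without control replicate 1 the log2 fold change was -0.03, and without control replicate 2 it was -0.13.

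Tarbp2 (chromosome 15, 102518192 to 102523676, plus strand) and Prkra encode TRBP and PACT, related double-stranded RNA-binding proteins that sit on DICER1. Tarbp2 stood at 63.7 and 73.3 CPM in the controls and at 72.3 and 60.5 CPM in the knockdowns, so that the groups overlapped. Its log2 fold change was -0.03 (SE 0.16), with an interval from 0.770-fold to 1.24-fold and an adjusted p of 0.987 by edgeR. Of the 50-nt stretches of its transcripts, 14.3% also occur in another gene, mainly Gm18584, which itself had 8 to 10 counts per library.

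Prkra (chromosome 2, 76629898 to 76648015, minus strand) showed the largest fold change of the 10. PACT, its product, is also known as an activator of PKR, the kinase that responds to double-stranded RNA. Control libraries held 77 and 22 counts of Prkra and knockdown libraries 248 and 154, which is 1.70 and 0.537 CPM against 5.83 and 4.30 CPM. Both knockdown libraries were above both controls, and control replicate 2 lay well below control replicate 1. Without control replicate 1 the log2 fold change was 3.26, and without control replicate 2 it was 1.58. With all libraries it was 2.15 (SE 0.77), a 4.45-fold higher level with an interval from 1.40-fold to 14.2-fold. The adjusted p was 0.835 by edgeR, 0.0935 by DESeq2 and 0.886 by limma-voom, so the difference did not pass the correction by any of them. Of 4644 tested genes with a mean between 1 and 10 CPM, 78 (1.68%) had a log2 fold change at least as high, and in 69 of these the groups did not overlap. No exon of Prkra overlaps another gene of the table, and 0 of its 50-nt stretches occur in another annotated gene. Per length, the Prkra level was 6.0% and 1.65% of the Tarbp2 level among control libraries and 18.1% and 15.9% among knockdown libraries. With the longest coding transcript as the length, these shares were 2.52% and 0.692% against 7.6% and 6.71%. Eif2ak2, the gene of PKR, was picked after its values were seen. Its counts were 158 and 134 among control libraries and 83 and 38 among knockdown libraries, so the knockdowns were the lower. Its log2 fold change was -1.14, with an adjusted p of 0.873 by edgeR.

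The Argonautes bind the finished small RNA, and AGO2 is the member known to cut targets in mammals. Ago2 (chromosome 15, 73095844 to 73184935, minus strand) stood at 50.3 and 44.5 CPM in the controls and at 37.7 and 41.5 CPM in the knockdowns. The knockdown libraries lay below both controls, and the gap between the groups was smaller than that between the controls. Its log2 fold change was -0.27 (SE 0.19), with an interval from 0.626-fold to 1.10-fold and an adjusted p of 0.878 by edgeR. Leaving out control replicate 1 gave -0.16, and leaving out control replicate 2 gave -0.36. Ago2 shares 219 nt of exon (1.56% of its exon length) with Chrac1, a chromatin remodelling gene on the other strand, which had 12 to 184 counts per library.

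Ago3 (chromosome 4, 126331704 to 126429556, minus strand) stood at 63.0 and 65.3 CPM in the controls and at 47.5 and 60.0 CPM in the knockdowns. Here too the groups did not overlap, with the knockdowns below the controls, and knockdown replicate 1 was the lower. The log2 fold change was -0.27 (SE 0.17), with an interval from 0.644-fold to 1.07-fold and an adjusted p of 0.858 by edgeR. Without knockdown replicate 1 the log2 fold change was -0.10, and without knockdown replicate 2 it was -0.44.

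Ago1 and Ago4, the genes with the arginine codon, lie beside Ago3 on the minus strand of chromosome 4, from 126435012 to 126468583 and from 126489541 to 126533472. Ago1 had 64 and 72 counts among the control libraries, against 112 and 106 among the knockdown libraries. The groups did not overlap, and the log2 fold change of 0.81 (SE 0.80) had an interval from 0.536-fold to 5.77-fold and an adjusted p of 0.930 by edgeR. For Ago4 the counts were 23 and 28 among the control libraries, against 22 and 64 among the knockdown libraries. Only knockdown replicate 2 stood apart, and the log2 fold change of 0.89 (SE 1.21) turned to -0.20 without it, with an adjusted p of 0.957 with all libraries by edgeR. Of the 50-nt stretches of their transcripts, 0.29% for Ago4, 1.53% for Ago1, 0.731% for Ago3 and 3.46% for Ago2 also occur in another annotated gene.

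Ago3 and Ago2, the genes with the histidine codon, together made up most Argonaute messenger RNA in every library. As a share of the summed counts per kilobase of the 4 genes, Ago3 took 51.4% ± 2.27 (SD, n = 2) in the controls and 49.2% ± 1.53 in the knockdowns. Ago2 took 44.8% ± 2.97 and 43.1% ± 2.90 (SD, n = 2). The Ago2 difference between groups was smaller than the SD of the controls. That of Ago3 was below the SD of the controls by summed exon length but above it by longest coding transcript, where the shares were 50.8% and 53.9% in the controls against 48.9% and 51.0% in the knockdowns. Ago1 took 2.28% and 2.92% among control libraries and 5.44% and 5.06% among knockdown libraries, and Ago4 took 0.959% and 1.33% against 1.25% and 3.57%. The Ago1 shares of the groups did not overlap, on 64 to 112 counts per library. An exact permutation test of 2 libraries against 2 cannot go below 0.333, and no other test of the shares was made.

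**Figure D3:**
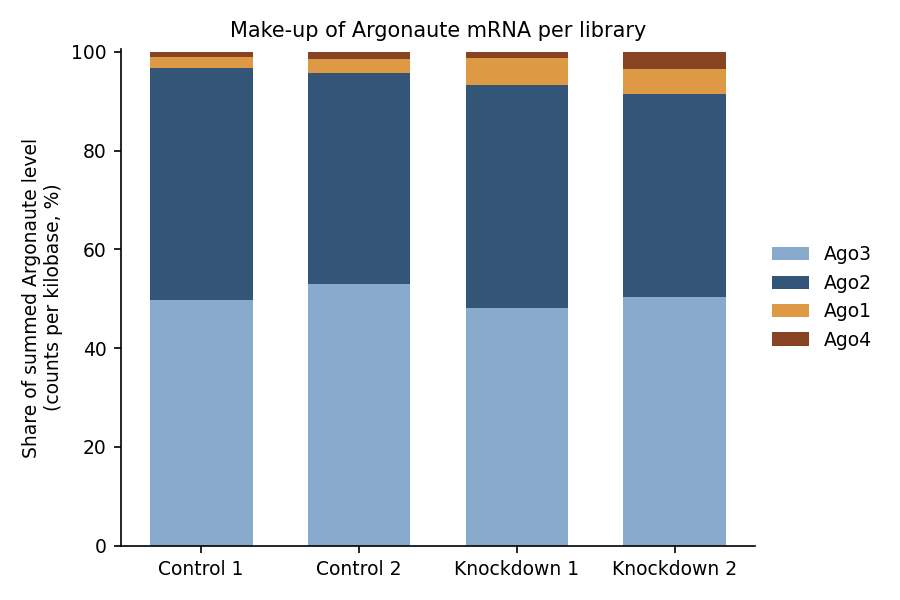
Make-up of Argonaute messenger RNA in each library, as percent of the summed counts per kilobase of Ago1, Ago2, Ago3 and Ago4. Ago3 and Ago2 fill most of each bar, and Ago1 takes 2.28% to 5.44%.

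How small a difference could be seen depended on the level of each gene. For 7 of the 10 members the 95% interval excluded a 2-fold change in either direction (46.7% of all tested genes). For 5 of them, Dicer1, Drosha, Dgcr8, Tarbp2 and Xpo5, it also excluded a 1.5-fold change (4570 of 15868 tested genes). Among tested genes with a mean of 10 to 100 CPM, 4911 of 6005 excluded a 2-fold change, and over 100 CPM 2426 of 2427 did. The interval reached 1.10-fold either side of the estimate for Dicer1, at a mean of 827 CPM over the 4 libraries, and 1.43-fold for Dgcr8, at 29.9 CPM. For Prkra, Ago1 and Ago4, with means of 3.09, 2.19 and 0.874 CPM, it reached 3.18-fold, 3.27-fold and 5.98-fold. The intervals of these genes did not exclude a 2-fold difference, and the parts that counting depth, spread between libraries and the number of libraries have in this were not tested.

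**Figure D4:**
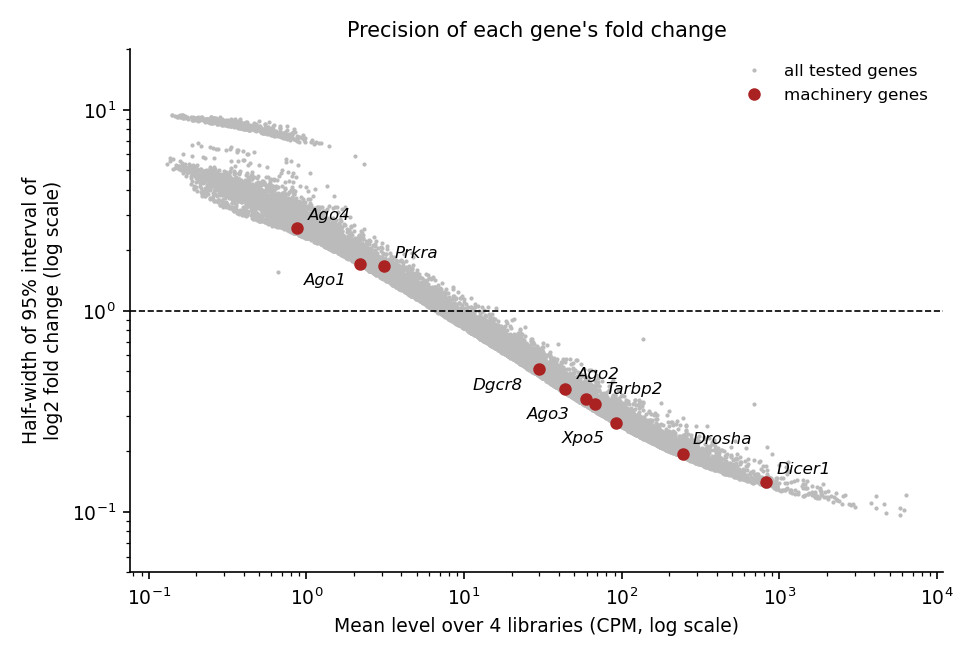
Half-width of the 95% interval of the log2 fold change against the mean level in CPM, both on log scales, for all tested genes (grey) and the 10 machinery genes (red). The dashed line marks a half-width of 1, which is 2-fold. Ago4, Ago1 and Prkra lie above it, and the other 7 genes lie below it.

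Other genes of small RNA pathways also held no call by edgeR. In 5 lists without the 10 members, 84 different genes were tested, 0 passed the threshold, 11 (13.1%, against 5.51% of all tested genes) had an unadjusted p under 0.05, 5 higher and 6 lower, and the median log2 fold change was 0.00. DESeq2 called 6 of these genes, 3 higher and 3 lower, which is 7.14% against 1.77% of the genes it adjusted. By limma-voom 0 passed, while 16 (19.0%, against 4.71% of all tested genes) had an unadjusted p under 0.05. The lists were not matched to all genes by level, and they were chosen with earlier results of these data known. By edgeR the unadjusted p was under 0.05 for 292 of 6005 tested genes with a mean of 10 to 100 CPM. Over 100 CPM it was so for 185 of 2427.

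Cofactors of microRNA processing, such as helicases of the Microprocessor and LIN28 proteins, numbered 22 tested of 23 in the table, with 10 above and 12 below 0 and a median log2 fold change of -0.02. Ddx5, the helicase p68 that works with DROSHA, had the smallest p and stood at 245 and 268 CPM in the controls and at 306 and 316 CPM in the knockdowns. The groups did not overlap. Its log2 fold change was 0.27 (SE 0.09), with an adjusted p of 0.835 by edgeR and 0.0114 by DESeq2.

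Partners of Argonaute in silencing, among them GW182 proteins and decapping factors, numbered 27 tested of 28, with 9 above and 18 below 0 and a median log2 fold change of -0.05. Dcp1a, a cofactor of the decapping enzyme, stood at 398 and 335 CPM in the controls and at 301 and 304 CPM in the knockdowns. The knockdowns were the lower, with a log2 fold change of -0.28 (SE 0.10) and an adjusted p of 0.835 by edgeR. Without control replicate 1 the value was -0.14, and without control replicate 2 it was -0.41. DESeq2 called 3 other genes of this list, named after their values were seen, all lower in the knockdowns. They were the nuclear import receptor Tnpo1 (log2 fold change -0.23, adjusted p 0.0191), the co-chaperone Fkbp5 (-0.19, adjusted p 0.0314) and the ubiquitin ligase Trim32 (-0.42, adjusted p 0.039).

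Genes of small RNA turnover numbered 13, all tested, with 9 above and 4 below 0 and a median of 0.07. Parn, a poly(A)-specific ribonuclease that also trims small RNAs, stood at 86.4 and 96.8 CPM in the controls and at 68.3 and 74.8 CPM in the knockdowns. The knockdown libraries were lower, with a log2 fold change of -0.36 (SE 0.14) and an adjusted p of 0.835 by edgeR.

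Of other double-stranded RNA-binding proteins 18 of 19 were tested, with 10 above and 8 below 0 and a median of 0.02. Zfr2, a relative of the zinc finger protein ZFR, was at 0 counts in both controls, and the knockdown libraries had 60 and 30 counts. Taking 3 counts per library as the limit that a count of 0 allows, the mean knockdown level was 16.1-fold above that limit. This ratio allows for counting noise in the controls only and leaves out the spread between libraries. The edgeR interval of the log2 fold change of Zfr2 ran from 0.927 to 16.202, so a smaller difference than 16.1-fold was not excluded. The adjusted p was 0.835 by edgeR and 0.0443 by DESeq2. With Zfr2 set to 16.1-fold the median of the list was still 0.02.

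Genes for which endogenous small interfering RNAs have been reported in mouse oocytes were a list of 6. All 6 log2 fold changes were above 0, with a median of 0.23, where 8004 of 15868 tested genes were above 0. Ppp4r1, a regulatory subunit of protein phosphatase 4 whose pseudogene pairs with it to make such RNAs, stood at 22.6 and 20.5 CPM in the controls and at 35.2 and 37.7 CPM in the knockdowns. The groups did not overlap, with the knockdowns higher. Its log2 fold change was 0.75 (SE 0.23), with an adjusted p of 0.835 by edgeR, 0.00463 by DESeq2 and 0.886 by limma-voom. The log2 fold changes of the histone deacetylase Hdac1, Rangap1 and Oog4 were 0.36, 0.32 and 0.15. Those of the kinesin Kif4 and Pdzd11 were 0.03 and 0.001. Hdac1, Rangap1, Kif4 and Pdzd11 had overlapping groups. Hdac1 stood at 18.3 and 17.5 CPM in the controls and at 17.6 and 29.2 CPM in the knockdowns, so only knockdown replicate 2 stood apart. For Rangap1 only control replicate 1 stood apart, with 3.58 and 10.9 CPM in the controls against 7.92 and 9.89 CPM. Some genes of this list have pseudogene or family copies, so their counts are uncertain. The spans of Kif4 and Pdzd11 overlap on opposite strands of chromosome X, and the strand setting of the counting is not known.

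**Figure D5:**
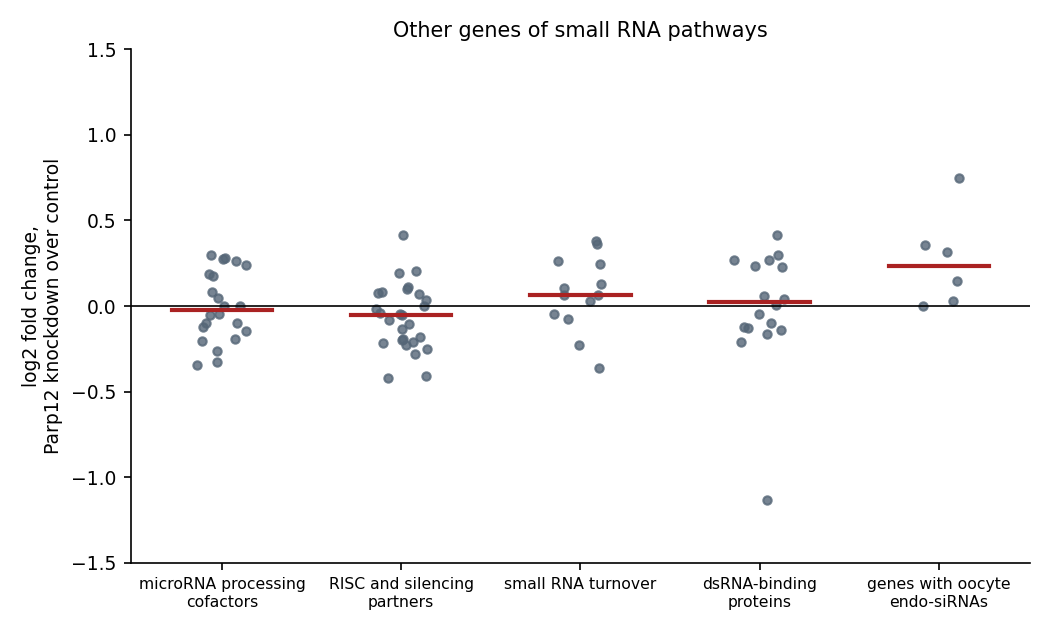
Log2 fold change, knockdown over control, of tested genes in 5 lists of small RNA pathway genes without the 10 machinery genes. Points are genes and red bars are list medians, which lie between -0.05 and 0.23. Zfr2, with 0 counts in both controls, lies outside the axis.

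The label of the cells was set against cell type markers. The 14 oocyte markers, such as Gdf9, Zp3 and Nlrp5, summed to 25810 and 26590 CPM in the controls and to 27180 and 27860 CPM in the knockdowns. Of these markers 10 had log2 fold changes above 0 and 4 below, with a median of 0.04. Mos (417 and 444 against 367 and 383 CPM) and Figla (34.4 and 35.7 against 29.2 and 20.3 CPM) were lower in both knockdowns. Of 20 granulosa and cumulus markers 8 were at 0 in all libraries, Amh and Foxl2 among them. The list summed to 500 to 610 CPM, mostly from Serpine2 and Nr5a2. Cyp19a1 was present too, at 24.67 and 29.29 CPM in the controls and at 26.66 and 23.77 CPM in the knockdowns. Kitl stood at 21.58 and 18.15 against 15.31 and 13.74 CPM, lower in both knockdowns. Among the 7 tested genes of that list, 2 were above and 5 below 0, with a median log2 fold change of -0.091. The 11 theca and stroma markers summed to 14.5 and 20.8 CPM in the controls and to at least 25.8 CPM in both knockdowns, with Col1a2 and Col3a1 at 0. Apoe carried that difference, and without it the sums were 3.52 and 7.69 CPM against 2.33 and 4.89 CPM, with overlapping groups. Of the 5 tested genes of the list, 2 were above and 3 below 0, with a median log2 fold change of -0.38. The 6 blood and endothelial markers summed to 94.0 to 102 CPM, with Cdh5 at 0, nearly all from Pecam1. Without Pecam1 the sums were 0.486 and 1.1 CPM against 3.05 and 2.4 CPM. In the knockdowns they came mostly from 1 gene, Cd68, at 0 and 1.08 CPM in the controls and at 3.05 and 2.07 CPM in the knockdowns. Apoe, the blood and endothelial sum without Pecam1 and the oocyte sum were higher in both knockdowns, as Prkra and Ppp4r1 were, and their part in those values was not tested. In pooled RNA, fewer cells of a type and less RNA per cell cannot be told apart.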

How the data were processed

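Per the labels' protocols, total RNA of oocytes was extracted with a micro kit, poly(A) RNA was isolated and Illumina libraries were made. The authors deposited raw read counts per gene, with exon coordinates, strand and summed exon length per the file headers. Named in the submitters' processing notes, without roles, are mm10, featureCounts 2.0.0, STAR 2.7.5b, Trim Galore 0.6.4 and DESeq2 1.28.1. No source used here gives the strand setting or the treatment of multi-mapping reads. All 10 genes had the same coordinates in GENCODE vM21. Counts of replicates differed beyond sampling noise (chi-square of 38.0 and 32.6 per degree of freedom).

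Counts were analysed with edgeR 4.0.16 in R 4.3.3: filterByExpr defaults (minimum count 10, total 15), TMM factors (0.991 to 1.01), estimateDisp, robust glmQLFit and glmQLFTest, two-sided, group only, adjusted over 15868 genes. The 95% intervals come from the SE and the t distribution and cover the spread between libraries only. Stretches of 50 nt were matched to GENCODE transcripts on both strands. A count of 0 allows up to 3 counts. The pipeline was tested on simulated counts.

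Alternatives were median-of-ratios and no scaling factors, no filter, each library left out, the replicate number as a block, a filter of 1 CPM (both libraries of a group), edgeR's legacy fit, DESeq2 1.42.0 and limma-voom (limma 3.58.1). Members, lists and tests were chosen with earlier results of these data known. Named genes were the 10 members, Parp12, genes that overlap their exons, and in each list the genes past the threshold or otherwise the smallest p among genes with a mean of at least 1 CPM in a group; Eif2ak2, the GW182 and Tut genes, the marker genes, genes with shared stretches, Tnpo1, Fkbp5, Trim32 and all members of the list of small interfering RNA genes were named after their values were seen.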

Additional observations from a re-analysis of the deposited data

How the results depend on the processing

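No member of the machinery passed the threshold under any of the 12 alternatives, and Dicer1, Ago1, Ago2, Ago3 and Prkra kept their direction in all of them. In 4 of these a library was left out, so that 1 group held a single library, assumed to vary like the other group, and a missed threshold there says little. The other 5 changed sign when single libraries were left out, where log2 fold changes ran from -0.093 to 0.032 for Drosha, -0.14 to 0.23 for Dgcr8, -0.20 to 1.59 for Ago4, -0.18 to 0.08 for Tarbp2 and -0.001 to 0.079 for Xpo5. That of Prkra ran from 1.58 to 3.26 over all alternatives, and its adjusted p from 0.0935 to 0.994. Ago4 was not tested under the filter of 1 CPM. Over all genes, 1 was called, against 8 with the filter of 1 CPM, 297 by DESeq2, 0 by limma-voom and 1 to 2 with a library left out (2 without knockdown replicate 1); the cause was not tested. DESeq2 called 6 of the pathway list genes, where edgeR called 0. With the replicate number as a block, 1 gene was called and Prkra had a log2 fold change of 2.14. Same-numbered libraries did not deviate together (correlation 0.01 over 8358 genes). With 2 libraries a group this cannot exclude that they were paired, and the labels give no pairing.

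Argonaute shares moved by more than the SD with raw counts in place of counts per kilobase, to 1.40% (controls) and 2.88% (knockdowns) for Ago1, 41.7% (controls) for Ago2, 56.4% and 55.1% for Ago3, and 0.525% (controls) for Ago4. With the longest coding transcript as the length Ago1 took 5.64% in the knockdowns. Shares by RefSeq coding length were not run. The intervals of Prkra, Ago1 and Ago4 were the widest.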

Other observations

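The GW182 genes Tnrc6a, Tnrc6b and Tnrc6c, whose products link Argonaute to deadenylation, were picked after their values were seen. Tnrc6a stood at 39.2 and 47.4 CPM in the controls and at 42.4 and 41.1 CPM in the knockdowns. Tnrc6b stood at 55.3 and 51.1 against 48.8 and 40.3 CPM, and Tnrc6c at 34.4 and 29.3 against 25.6 and 22.4 CPM. For Tnrc6b and Tnrc6c both knockdown libraries were below both controls, with log2 fold changes of -0.25 and -0.41 and adjusted p of 0.885 and 0.841 by edgeR. Of the terminal uridylyltransferases that tail precursor microRNAs, Tut7 had 477 to 697 counts per library. Tut4 had 1 count in control replicate 1 and 0 in the other libraries. Overlaps and shared stretches with other genes were searched for the machinery members and not for Tut4. The strand setting and the treatment of multi-mapping reads are not known either. The Tut4 counts therefore do not show that its messenger RNA was absent.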
